A study of Rattus norvegicus with 12 samples.

Results

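Endothelial and pericyte genes were examined in the medial prefrontal cortex (mPFC) of rats. Members were taken by symbol from a list of 37 genes of vessel walls, and 36 of the 29009 genes in the count table carried one of those symbols. Slco1a4 was listed there under its older symbol Slco1a2 and was matched by its NCBI gene ID, so its values are given separately. It is in none of the counts of expression values except that of groups searched for outlying rats. The list held 23 genes of endothelial identity and transcription, 3 tight junction genes, 7 transporters of the blood-brain barrier including Slco1a4, and 4 pericyte genes. All 36 passed the filter on low counts.

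Endothelial cells line brain capillaries, and their tight junctions and transporters form the blood-brain barrier. Pericytes sit on the outer wall of the capillary, share its basement membrane and keep the barrier closed. VEGF, angiopoietin and Wnt signals reach endothelial cells through receptor kinases and frizzled receptors, and transcription factors of the ETS and SOX families hold the endothelial program in place.

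The study compared 3 groups of 4 adult male Sprague Dawley rats, and each library was taken as 1 rat. CPA+veh rats (chronic prefrontal activation) carried in the mPFC an AAV8 virus with hM3Dq-mCherry, an engineered excitatory receptor, under the mCaMKIIa promoter of excitatory neurons, drank CNO, its ligand, at 2 mg/kg for 10 days and then received vehicle for 7 days. CPA+RO rats had the same virus and CNO, followed by 7 days of the oxytocin receptor agonist RO6958375 at 0.07 mg/kg. Control+veh rats carried a virus with a fluorophore alone, and received CNO and vehicle. Every group thus had a virus and CNO, and since the viruses differed, virus and activation cannot be told apart between CPA and control rats. The mPFC was cut from slices used for recordings, so each library mixes all cell types of the tissue, and fewer vessel cells cannot be told apart from less RNA per vessel cell.

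Libraries held 64993543 to 79006972 counts. Even numbers made up 92.7% of low counts (1 to 9), a sign that each mate of a pair was counted and that fewer fragments stand behind the totals. Neuronal markers summed to 10196 to 11789 CPM (counts relative to library size, scaled by TMM) over the 12 libraries, and vessel members to 722 to 1056 CPM. Platelet gene Ppbp had 0 counts in all 3 groups. The list of 10 blood cell genes that holds it summed to 37.8 to 67.6 CPM in CPA+veh, 35.1 to 66.9 in CPA+RO and 46.2 to 55.0 in control+veh. CPA+veh replicates 1 and 2 stood apart from the other libraries in the vessel genes and in the oligodendrocyte markers, and results that rest on them are given with and without them. The 12 rats were run in 2 cohorts, which no label ties to a library.

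The promoters of 4 members are shown because these genes stood among the lower endothelial and pericyte members in CPA+veh and hold a letter match to an ETS or SOX motif. A promoter entry of RefSeq (assembly GRCr8) was matched for 23 of the 37 genes. Capitals mark CNGGAAG, a core of ETS sites, and AACAAT, a core of SOX sites, on either strand, and bases inside the annotated gene are left out. Emcn lies at chr2:228564289-228564444 on the plus strand, Cgnl1 at chr8:81305599-81305847 on the minus strand, Tie1 at chr5:137305048-137305231 on the minus strand and Rgs5 at chr13:84380827-84381076 on the plus strand.
Emcn: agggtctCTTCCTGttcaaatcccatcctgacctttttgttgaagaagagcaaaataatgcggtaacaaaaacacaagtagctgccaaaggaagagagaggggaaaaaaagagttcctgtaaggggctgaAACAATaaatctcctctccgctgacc
Cgnl1: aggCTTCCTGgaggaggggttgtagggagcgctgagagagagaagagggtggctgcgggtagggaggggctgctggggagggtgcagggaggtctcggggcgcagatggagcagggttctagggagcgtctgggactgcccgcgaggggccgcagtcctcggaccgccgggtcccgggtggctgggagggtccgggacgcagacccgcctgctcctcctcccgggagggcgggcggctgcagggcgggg
Tie1: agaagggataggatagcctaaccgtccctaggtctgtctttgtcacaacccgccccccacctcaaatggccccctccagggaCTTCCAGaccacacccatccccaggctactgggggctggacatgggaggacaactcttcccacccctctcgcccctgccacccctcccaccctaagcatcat
Rgs5: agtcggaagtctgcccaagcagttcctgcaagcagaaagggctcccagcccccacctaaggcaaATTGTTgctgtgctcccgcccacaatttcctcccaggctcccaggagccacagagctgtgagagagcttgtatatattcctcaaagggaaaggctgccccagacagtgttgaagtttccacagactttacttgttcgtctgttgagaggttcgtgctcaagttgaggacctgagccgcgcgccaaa

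Motifs were searched in the first 250 bases of every entry, in members and all promoters alike, including the bases left out above where the annotated gene reaches into the entry (94 in Emcn, 66 in Tie1 and 1 in Cgnl1). CNGGAAG occurred in 8 of the 23 genes (34.8%), against 26.3% of 27457 rat promoters. Those genes were Abcg2, Apold1, Cgnl1, Egfl7, Emcn, Erg, Slco1a4 and Tie1. AACAAT occurred in 7 of the 23 (30.4%), against 10.3% of all promoters, in Emcn, Erg, Kcne4, Podxl, Rgs5, Slco1a4 and Tjp1. ATCAAAG, a core of LEF and TCF sites, had no match in the 23 windows, against 3.18% of all promoters. Each motif was searched on both strands, no matches overlap in the sequences shown, and a match is a description of the letters, not a site.

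Levels can be compared between genes per length, as RPKM, which divides reads by the length of the gene model in kb and by the library total. Averaged over the 12 libraries, the highest members were Apold1, an early response gene of endothelium, at 48.6 RPKM, and Slc2a1, the glucose transporter GLUT1, at 45.9 RPKM. Rgs5, a regulator of G protein signalling and a pericyte marker, stood at 33.0 RPKM on a gene model of only 0.546 kb. Itm2a, a membrane protein rich in brain endothelium, stood at 30.8 RPKM, Slc7a5, a carrier of large neutral amino acids, at 20.2 RPKM and Slco1c1, the thyroxine carrier, at 16.2 RPKM. The other 30 members lay between 0.291 RPKM for Sox18 and 9.71 RPKM for Tjp1. Slc2a1, Slc7a5, Slco1c1 and Tjp1 are also made outside vessels, so their levels are not those of vessel cells alone.

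To see whether chronic activation left a mark on vessel genes, CPA+veh was compared with control+veh. No member passed edgeR's quasi-likelihood test at an adjusted p under 0.05, beside 0.115% of the 19094 genes tested (0.0209% higher and 0.0943% lower). The smallest adjusted p among members was 0.270. DESeq2 called 1 member, Mfsd2a, beside 115 of the 19094 genes, where edgeR called 22. Limma-voom called 0 members, beside 19 of all genes. Most members nevertheless lay below control+veh, with 32 of 36 below 0 and 4 above, against 48.1% of all genes below 0. Their median log2 fold change was -0.24, with 0.0066 over all genes, and the range ran from -0.53 for Kdr to 0.41 for Mfsd2a. At an unadjusted p under 0.05, 9 members were lower (25% of 36, against 4.94% of all genes) and 1 was higher (against 4.99%). Every CPA+veh library was below every control+veh library in 2 members (2.72% of all genes) and above in 1 (1.90%).

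**Figure D1:**
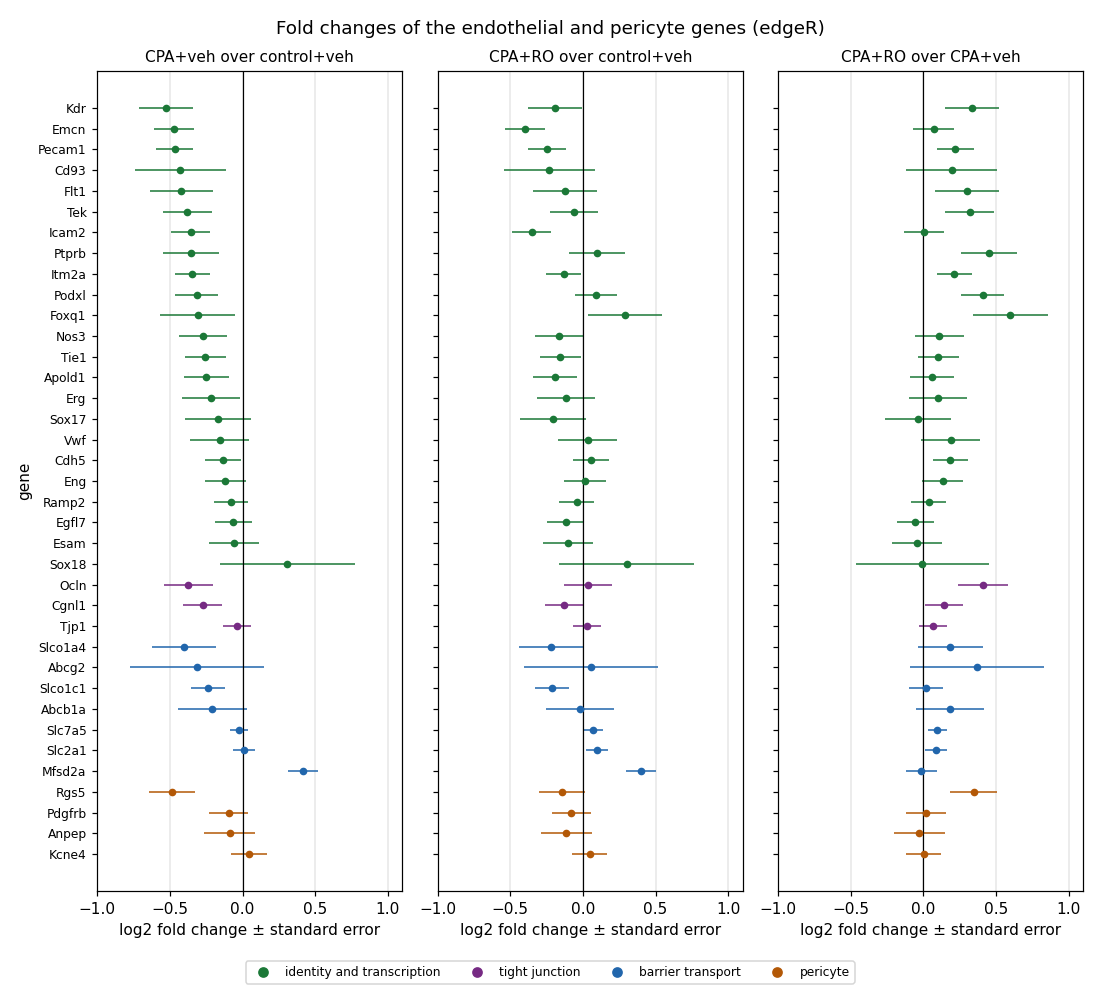
Log2 fold change of each gene (points, edgeR) with its standard error (bars) in the 3 comparisons, coloured by role, with genes down the page and Slco1a4 shown from its older symbol. In the left panel 32 of the 36 members lie below 0, in the middle panel 22, and in the right panel 6.

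Pecam1 and Emcn were the members whose CPA+veh and control+veh libraries did not overlap downwards. Pecam1, an adhesion protein at endothelial junctions, was at 7.85, 7.11, 10.6 and 10.4 CPM in CPA+veh replicates 1 to 4, at 10.9999, 11.7, 8.97 and 10.2 CPM in CPA+RO and at 12.3, 12.6, 11.4 and 13.4 CPM in control+veh. CPA+veh replicates 1 and 2 were the lowest of the 12, and the other CPA+veh rats also stayed under the lowest control. The log2 fold change of CPA+veh over control+veh was -0.47 ± 0.13 (SE; adjusted p = 0.288, edgeR). Emcn, endomucin of the luminal surface, was at 4.30, 3.55, 4.24 and 4.04 CPM in CPA+veh, at 4.98, 3.63, 3.45 and 4.86 CPM in CPA+RO and at 5.37, 5.96, 4.90 and 6.10 CPM in control+veh. The 4 CPA+veh rats lay close together, at a coefficient of variation of 8.50%, and CPA+RO ranged on both sides of them. Its log2 fold change over control+veh was -0.47 ± 0.14 in CPA+veh (adjusted p = 0.310, edgeR).

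The VEGF receptors were low in a subset of CPA+veh rats. Kdr, the main signalling receptor for VEGF, was at 4.59, 4.33, 5.20 and 7.38 CPM in CPA+veh, at 7.85, 5.43, 6.93 and 6.91 CPM in CPA+RO and at 8.71, 9.55, 5.91 and 6.88 CPM in control+veh. Replicates 1 to 3 of CPA+veh lay under every control, and replicate 4 lay among the controls. The log2 fold change was -0.53 ± 0.19 (adjusted p = 0.398, edgeR). Flt1, which binds VEGF with little signalling, was at 31.3, 27.6, 59.5 and 61.0 CPM in CPA+veh, at 51.7, 57.1, 51.0 and 60.9 CPM in CPA+RO and at 47.8, 69.9, 54.9 and 67.7 CPM in control+veh. CPA+veh split into a low pair and a pair within the control range, with a coefficient of variation of 39.8% against 17.4% in control+veh. Its log2 fold change was -0.42 ± 0.22 (adjusted p = 0.525, edgeR).

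The angiopoietin receptor kinases and their phosphatase had the same low pair. Tek, the receptor of angiopoietins, was at 7.26, 6.47, 10.6 and 12.05 CPM in CPA+veh, at 10.9, 12.6, 9.86 and 11.9 CPM in CPA+RO and at 10.6, 12.3, 11.1 and 13.3 CPM in control+veh. Its log2 fold change in CPA+veh over control+veh was -0.38 ± 0.17 (adjusted p = 0.485, edgeR), with replicates 3 and 4 of CPA+veh in or at the edge of the control range. Tie1, the partner receptor of Tek, averaged 13.6 ± 2.76 CPM in CPA+veh, 14.6 ± 1.92 in CPA+RO and 16.3 ± 2.003 in control+veh (SD, n = 4 each). Ptprb, a phosphatase that acts on Tek and VE-cadherin, was at 27.5, 28.5, 45.8 and 54.6 CPM in CPA+veh, at 47.6, 54.2, 57.0 and 55.0 CPM in CPA+RO and at 40.0, 51.3, 45.8 and 62.9 CPM in control+veh. Again replicates 1 and 2 of CPA+veh lay under every other library.

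**Figure D2:**
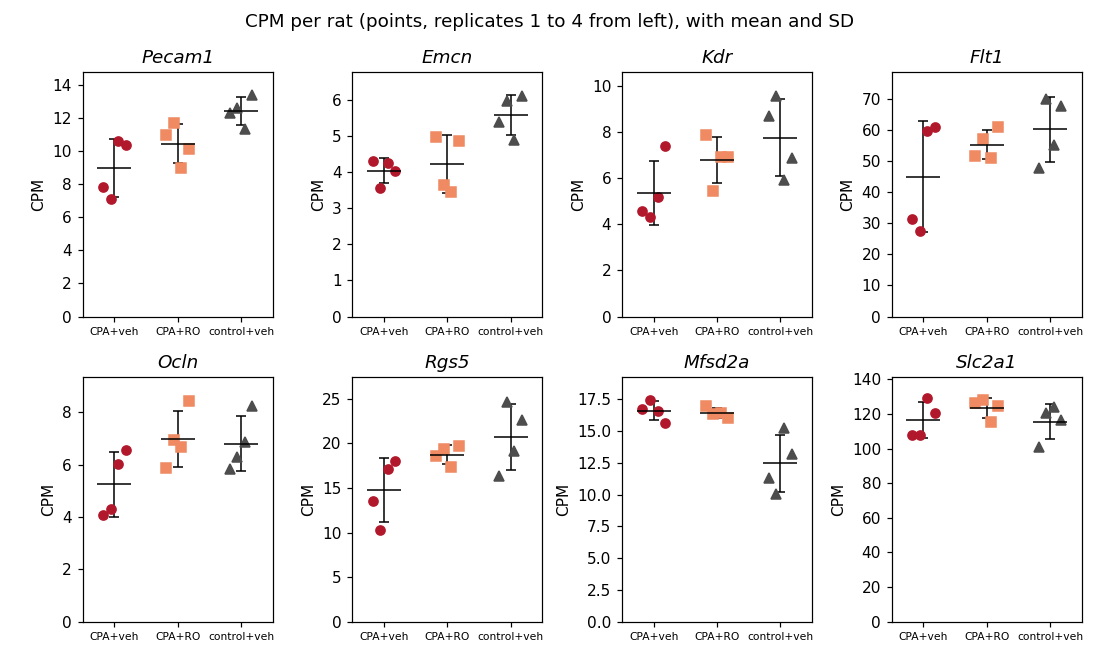
CPM of 8 genes in each rat (points, replicates 1 to 4 from left within a group) with the mean (long line) and SD (whiskers) of CPA+veh, CPA+RO and control+veh. Pecam1 and Emcn do not overlap between CPA+veh and control+veh, Flt1 splits CPA+veh into 27.6 and 31.3 CPM against 59.5 and 61.0 CPM, and Mfsd2a is above every control in all 8 CPA rats.

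Of the remaining identity genes, Icam2, Itm2a and Podxl were lower at an unadjusted p under 0.05. Icam2, a leukocyte adhesion ligand of resting endothelium, was at 2.39, 2.19, 2.04 and 1.98 CPM in CPA+veh, at 1.77, 2.24, 2.31 and 2.29 CPM in CPA+RO and at 2.95, 2.82, 2.30 and 2.93 CPM in control+veh. CPA+veh replicate 1 overlapped the lowest control, and CPA+RO replicate 1 was the lowest of the 12. The log2 fold change was -0.36 ± 0.14 in CPA+veh (adjusted p = 0.428, edgeR). Itm2a was at 35.2, 36.7, 46.5 and 51.2 CPM in CPA+veh, at 41.4, 51.3, 48.5 and 55.4 CPM in CPA+RO and at 49.3, 55.8, 49.5 and 60.8 CPM in control+veh, a log2 fold change of -0.34 ± 0.12 for CPA+veh (adjusted p = 0.398, edgeR). Podxl, a sialomucin of the endothelial surface, is described with CPA+RO. Apold1, the member of highest CPM, was at 92.6, 115, 153 and 161 CPM in CPA+veh, at 120, 134, 120 and 169 CPM in CPA+RO and at 142, 154, 155 and 169 CPM in control+veh, with a log2 fold change of -0.25 ± 0.15 for CPA+veh (adjusted p = 0.593, edgeR).

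Other identity genes gave smaller or noisier differences. Cdh5, VE-cadherin of the adherens junction, averaged 8.19 ± 1.25 CPM in CPA+veh, 9.32 ± 1.15 in CPA+RO and 8.97 ± 0.844 in control+veh (SD, n = 4 each), a log2 fold change of -0.13 ± 0.12 in CPA+veh. Nos3, the nitric oxide synthase of endothelium, had -0.27 ± 0.17, Eng, a TGF-beta co-receptor, -0.12 ± 0.14, and Egfl7, a secreted endothelial factor, -0.06 ± 0.13 on the log2 scale. Vwf, which tethers platelets, had -0.16 ± 0.20 in CPA+veh, and its CPA+RO replicate 4 stood at 53.6 CPM against 34.0 CPM in the next. Esam, an adhesion protein, had -0.06 ± 0.17. Cd93, a surface lectin, had -0.43 ± 0.31, with 16.5 CPM in control+veh replicate 2 and 6.54 to 9.46 CPM in the other controls. Ramp2, a partner of the adrenomedullin receptor, had -0.08 ± 0.12, with CPA+veh replicate 2 at 12.3 CPM above 9.36 CPM in the next.

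The transcription factors were low in level and wide in spread. Erg, an ETS factor, was at 3.33, 3.93, 5.63 and 6.93 CPM in CPA+veh, at 4.75, 4.61, 5.22 and 6.64 CPM in CPA+RO and at 4.89, 6.33, 5.62 and 6.18 CPM in control+veh. Its low values were again in CPA+veh replicates 1 and 2, and the log2 fold change was -0.22 ± 0.20. Foxq1, a forkhead factor of brain endothelium, had -0.31 ± 0.26, and Sox17 had -0.17 ± 0.23. Sox18 was the 1 identity gene above 0, at 0.31 ± 0.46, with 0.0942 to 0.674 CPM in CPA+veh and 0.257 to 0.610 CPM in control+veh. At this depth no difference was detectable for Sox18.

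The 3 tight junction genes lay below 0 in CPA+veh, and none was called. Ocln, occludin, was at 4.10, 4.29, 6.03 and 6.58 CPM in CPA+veh, at 5.87, 6.93, 6.66 and 8.44 CPM in CPA+RO and at 5.84, 6.28, 6.87 and 8.25 CPM in control+veh. CPA+veh replicates 1 and 2 were below all other libraries, and replicates 3 and 4 were above the lowest control. The log2 fold change was -0.37 ± 0.17 (adjusted p = 0.490, edgeR). Cgnl1, paracingulin, which links junctions to the cytoskeleton, had -0.27 ± 0.13 (adjusted p = 0.509, edgeR). Tjp1, the scaffold ZO-1, was at 89.3, 66.2, 77.2 and 94.5 CPM in CPA+veh, at 77.2, 90.2, 85.3 and 89.5 CPM in CPA+RO and at 78.3, 86.8, 80.0 and 90.7 CPM in control+veh, and its groups overlapped fully at -0.04 ± 0.10.

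Barrier transporters were split in direction, with 4 of 6 below 0 and a median of -0.12. Mfsd2a, which carries lysophospholipids with docosahexaenoic acid across the barrier and limits transcytosis, was the member of smallest p. It was at 16.7, 17.4, 16.6 and 15.6 CPM in CPA+veh, at 17.0, 16.3, 16.4 and 16.0 CPM in CPA+RO and at 11.3, 10.1, 15.2 and 13.2 CPM in control+veh. All 8 CPA rats were above every control, and the controls spread over a coefficient of variation of 18.0% against 4.45% in CPA+veh and 2.44% in CPA+RO. The log2 fold change over control+veh was 0.41 ± 0.10 in CPA+veh (adjusted p = 0.270, edgeR) and 0.40 ± 0.10 in CPA+RO (adjusted p = 0.366, edgeR). DESeq2 gave an adjusted p of 0.0395 for CPA+veh and 0.0559 for CPA+RO. Over all alternatives the adjusted p ran from 0.0395 to 0.521 in CPA+veh, and it was 0.0612 without control+veh replicate 3. In CPA+veh replicates 1 and 2 it lay above the controls while Abcb1a and Slco1c1 in the same rats lay below the control mean.

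The carriers of glucose and amino acids overlapped between all groups. Slc2a1 was at 108, 108, 129 and 120 CPM in CPA+veh, at 126, 128, 115 and 125 CPM in CPA+RO and at 100.9, 120, 124 and 116 CPM in control+veh, with log2 fold changes over control+veh of 0.01 ± 0.07 in CPA+veh and 0.10 ± 0.07 in CPA+RO. Slc7a5 had -0.02 ± 0.06 in CPA+veh and 0.07 ± 0.06 in CPA+RO, with CPA+RO replicate 2 at 77.4 CPM above 71.7 CPM in the next. Slco1c1 was at 43.3, 32.0, 44.1 and 46.6 CPM in CPA+veh, at 39.7, 43.6, 37.4 and 47.6 CPM in CPA+RO and at 46.9, 57.1, 42.4 and 49.0 CPM in control+veh. Its groups overlapped, and the log2 fold changes over control+veh were -0.24 ± 0.12 in CPA+veh (adjusted p = 0.516, edgeR) and -0.22 ± 0.12 in CPA+RO (adjusted p = 0.879, edgeR).

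The efflux pumps varied widely between rats. Abcb1a, P-glycoprotein, was at 17.8, 20.3, 33.7 and 42.2 CPM in CPA+veh, at 27.4, 31.3, 31.6 and 39.5 CPM in CPA+RO and at 23.1, 34.9, 35.7 and 37.9 CPM in control+veh. CPA+veh over control+veh gave -0.21 ± 0.23 on the log2 scale. A close relative, Abcb1b, exists and the counting rule is not given in the sources used here, so the level of Abcb1a is uncertain. Abcg2, a pump for drugs and conjugates, was at 1.92, 9.31, 8.24 and 6.51 CPM in CPA+veh, at 6.84, 6.74, 8.40 and 11.6 CPM in CPA+RO and at 2.30, 6.87, 9.26 and 13.9 CPM in control+veh. CPA+veh and control+veh each held 1 rat far below the rest, and the log2 fold change was -0.31 ± 0.46. Slco1a4, a carrier of organic anions, was at 15.5, 19.5, 25.4 and 39.5 CPM in CPA+veh, at 24.3, 26.1, 26.7 and 36.5 CPM in CPA+RO and at 29.8, 35.9, 29.5 and 37.02 CPM in control+veh. CPA+veh replicates 1 to 3 were below every control and replicate 4 above every control, with a log2 fold change of -0.40 ± 0.22 (adjusted p = 0.558, edgeR), and reads shared with its relatives leave this level uncertain too.

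Among the pericyte genes, 3 of 4 lay below 0 at a median of -0.09, and Rgs5 had the smallest p. Rgs5 was at 13.5, 10.2, 17.2 and 18.0 CPM in CPA+veh, at 18.5, 19.4, 17.3 and 19.7 CPM in CPA+RO and at 16.3, 24.6, 19.1 and 22.5 CPM in control+veh. CPA+veh replicates 1 and 2 were the lowest of the 12, replicates 3 and 4 lay at the low end of the controls, and the log2 fold change was -0.49 ± 0.16 (adjusted p = 0.361, edgeR). Pdgfrb, the receptor by which pericytes are recruited, was at 31.1, 22.7, 23.8 and 22.4 CPM in CPA+veh, at 26.8, 22.3, 24.7 and 27.3 CPM in CPA+RO and at 29.8, 31.5, 25.5 and 20.0 CPM in control+veh. CPA+veh replicate 1 was its highest value in that group, opposite to Rgs5 in the same rat, and the log2 fold change was -0.10 ± 0.14. Kcne4, a potassium channel subunit, and Anpep, aminopeptidase N, had 0.04 ± 0.12 and -0.09 ± 0.18, and CPA+veh replicate 1 was the highest of its group for Kcne4 too, at 5.62 CPM against 4.41 CPM in the next.

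CPA+veh replicates 1 and 2 carried most of the difference between CPA+veh and control+veh. One or the other was the lowest of the 12 libraries in 28 of 36 members (77.8%), against 28.9% of all genes. Both together were the 2 lowest in 18 members (50%), against 6.63% of all genes, namely Abcb1a, Apold1, Cgnl1, Eng, Erg, Esam, Flt1, Itm2a, Kdr, Ocln, Pecam1, Podxl, Ptprb, Rgs5, Slc7a5, Tek, Tie1 and Vwf. Members below every control numbered 25, 24, 8 and 3 in CPA+veh replicates 1 to 4 and 11, 6, 8 and 3 in CPA+RO replicates 1 to 4, beside 20.2% to 29.7% of all genes in CPA+veh libraries and 18.2% to 21.4% in CPA+RO libraries. The median log2 level of the members relative to the control+veh mean was -0.48, -0.42, -0.09 and -0.01 in CPA+veh, -0.15, -0.06, -0.13 and 0.07 in CPA+RO, and -0.14, 0.06, -0.05 and 0.13 in control+veh. Without replicates 1 and 2 of CPA+veh, 20 of 36 members lay below 0 at a median of -0.03, and 2 were lower at an unadjusted p under 0.05, beside 3.84% of all genes. As these libraries were set apart with their low values known, their high shares of lowest ranks and a median nearer 0 without them were bound to follow. With replicate 1 alone left out the median was -0.14, and without replicate 4 alone the count of lower members was 17, beside 7.996% of all genes.

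**Figure D3:**
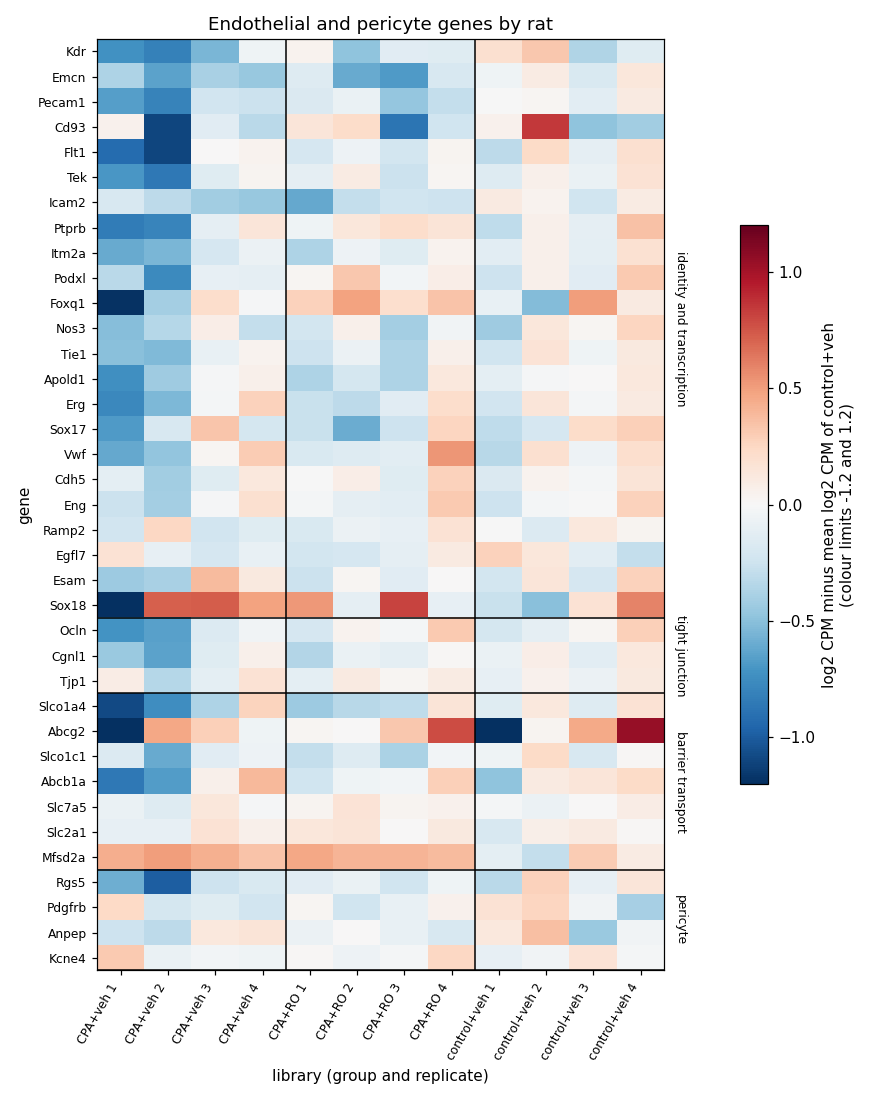
Log2 CPM of each gene in each library minus the gene's mean in control+veh (blue below, red above, clipped at the ends of the colour bar), with genes grouped by role and libraries by group. The first columns, CPA+veh replicates 1 and 2, are blue over most identity and tight junction genes, at a median of -0.61 and -0.47 over identity genes, while Mfsd2a is red in all 8 CPA libraries.

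Markers of glia stood higher in the same rats. Oligodendrocyte markers, 16 genes, stood at 0.57, 0.30, 0.10 and -0.01 in CPA+veh replicates 1 to 4 on the same log2 scale, astrocyte markers, 13 genes, at 0.50, 0.10, 0.00 and 0.03, and microglia markers, 13 genes tested of 14, at 0.36, 0.42, -0.06 and -0.07. The summed level of the oligodendrocyte list was 2933 to 5220 CPM in CPA+veh, 2784 to 3152 in CPA+RO and 2697 to 3073 in control+veh. That of the astrocyte list was 4416 to 6264 CPM in CPA+veh, 4473 to 4612 in CPA+RO and 3924 to 4567 in control+veh. All 16 oligodendrocyte markers were above 0 in CPA+veh over control+veh, 9 of them at an unadjusted p under 0.05 and 0 called, among them Sox10, a transcription factor of the lineage (0.33 ± 0.11, adjusted p = 0.383, edgeR). No defining glial marker was at 0 counts over a group. Neuronal markers stood at 0.18, -0.01, 0.19 and 0.10 in CPA+veh, 0.13 to 0.21 in CPA+RO and -0.07 to 0.05 in control+veh, with 6 of 13 higher at an unadjusted p under 0.05 in CPA+veh. Blood cell genes, 6 tested, stood at -0.42, -0.11, 0.48 and 0.12 in CPA+veh replicates 1 to 4. They stood at -0.52 to 0.35 in CPA+RO and -0.10 to 0.13 in control+veh. The part of cell makeup in the vessel values was not tested.

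Trends with gene length varied between libraries. The Spearman correlation of log2 level, relative to the gene's mean over the 12 libraries, with gene length across genes was -0.22 and -0.42 in CPA+veh replicates 1 and 2, 0.10 and 0.22 in replicates 3 and 4, 0.01 to 0.17 in CPA+RO and -0.22 to 0.19 in control+veh. Members had a median length of 3.55 kb, against 2.81 kb over all genes. After a correction for length the members' median was -0.24 and 31 of 36 lay below 0, so most members lay below 0 with the correction too. At an unadjusted p under 0.05, 12 were lower, beside 5.25% of all genes.

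Other genes of the vessel wall, from lists of their names, had medians nearer 0 than the members. Of 47 other endothelial genes tested, 33 lay below 0 at a median of -0.09, in a range of -0.43 to 0.92. At an unadjusted p under 0.05, 1 was lower and 3 were higher, and 0 were called. Cav2, a caveolar protein, was the one lower (8.38 ± 0.999 CPM in CPA+veh, 9.97 ± 0.948 in CPA+RO and 10.98 ± 1.98 in control+veh, SD, n = 4 each). The 3 higher genes, more than the 1 lower, are not named here. Of 18 other pericyte genes 15 lay below 0 at a median of -0.14, further from 0 than the -0.09 of the 4 pericyte members. Nes (log2 fold change -0.38) and Abcc9, a potassium channel regulator (-0.30), were lower at an unadjusted p under 0.05. In the vascular basement membrane list, 12 of 15 lay below 0, and Col4a1, collagen IV of the capillary sleeve, averaged 23.1 ± 3.10 CPM in CPA+veh, 27.0 ± 2.29 in CPA+RO and 32.2 ± 5.28 in control+veh (SD, n = 4 each), at -0.48 for CPA+veh over control+veh (adjusted p = 0.263, edgeR). Its partner chain Col4a2 had -0.18.

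Ligands and upstream pathways had medians nearer 0 than the members. Among 18 VEGF, angiopoietin and PDGF ligands and partner receptors, 9 lay above and 9 below 0 in CPA+veh over control+veh, at a median of -0.04. Vegfa, a ligand of Flt1 and Kdr, had 0.18, and Vegfb, a ligand of Flt1, had 0.25, both at an unadjusted p under 0.05. Flt4, a VEGF receptor of lymphatic and growing vessels, had -0.43. The Wnt and Norrin list had 7 of 18 above 0 and 11 below, at a median of -0.03, with Fzd4, the Norrin receptor that maintains the barrier, at 20.0 ± 2.41 CPM in CPA+veh, 20.1 ± 0.639 in CPA+RO and 16.0 ± 2.05 in control+veh (SD, n = 4 each). Its log2 fold change over control+veh was 0.32 in CPA+veh (adjusted p = 0.335, edgeR) and 0.33 in CPA+RO (adjusted p = 0.570, edgeR). Notch pathway genes had 9 of 13 above 0, at a median of 0.05, and none at an unadjusted p under 0.05. Arterial smooth muscle genes had 9 of 14 below 0 at a median of -0.10 and 0 called, with Mustn1 at 0.39, Lmod1 at 0.36 and Tpm2 at -0.26 at an unadjusted p under 0.05. Cldn5, the main claudin of brain endothelium, had -0.20 (adjusted p = 0.632, edgeR), in a list of 14 other junction genes with 8 above 0.

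**Figure D4:**
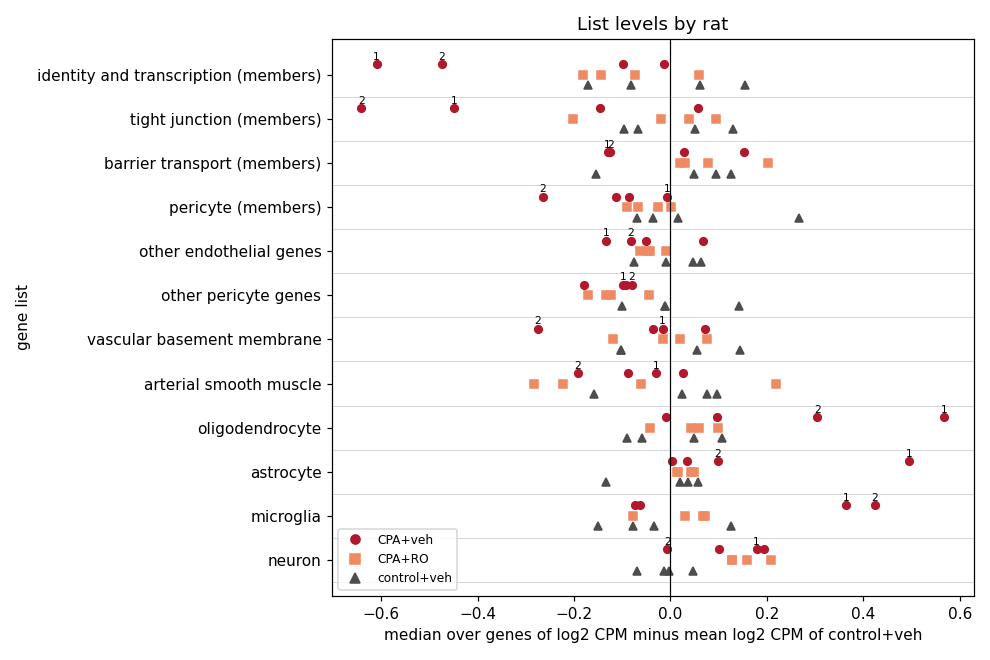
Median log2 CPM of each gene list in each rat, relative to the mean of control+veh, with CPA+veh replicates 1 and 2 numbered. These lie at -0.61 and -0.47 in the identity genes and at 0.57 and 0.30 in the oligodendrocyte markers, while CPA+RO and control+veh rats lie between -0.18 and 0.15 in both lists.

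To see whether vessel genes after agonist treatment differed from controls, CPA+RO was compared with control+veh. No member was called by edgeR, beside 0.110% of all genes (0.0105% higher and 0.0995% lower). DESeq2 and limma-voom called 0 members, beside 82 and 20 of all genes. Of 36 members, 22 lay below 0 and 14 above, against 50.0% of all genes below 0, and the median was -0.09, with 4.3e-05 over all genes. At an unadjusted p under 0.05, 2 were lower (5.56%, against 2.97% of all genes), Emcn and Icam2, and 1 was higher (against 2.78%), Mfsd2a. Mfsd2a was the one member without overlap upwards (2.83% of all genes), and 0 were without overlap downwards (2.74%). Emcn had -0.40 ± 0.14 (adjusted p = 0.726, edgeR) and Icam2 -0.35 ± 0.14 (adjusted p = 0.791, edgeR). By role, the medians were -0.12 for identity genes, 0.03 for tight junction genes, 0.06 for barrier transporters and -0.10 for pericyte genes. The comparisons with control+veh share the same 4 control rats, so Mfsd2a, Emcn and Icam2 in both are not separate evidence. Without control+veh replicate 2 the median was -0.03, without control+veh replicate 4 it was -0.05, without CPA+RO replicate 1 or 3 it was -0.05 and -0.06, and without CPA+RO replicate 4 it was -0.14.

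Among the partners, other pericyte genes leaned lower in CPA+RO, with 14 of 18 below 0 at a median of -0.20. Vtn, vitronectin, a pericyte product in brain, averaged 20.7 ± 0.434 CPM in CPA+veh, 18.3 ± 0.311 in CPA+RO and 22.8 ± 3.21 in control+veh (SD, n = 4 each), at -0.32 for CPA+RO over control+veh (adjusted p = 0.399, edgeR). Igf2, a growth factor made by meningeal and perivascular cells, had -0.67 (adjusted p = 0.351, edgeR), with 50.7 ± 4.73 CPM in CPA+RO and 81.0 ± 21.4 in control+veh. Its list, perivascular fibroblast and meningeal genes, had 7 of 15 above 0 and 8 below, at a median of -0.04 and a highest value of 0.70. Ndp, the Norrin ligand of Fzd4, had -0.42 (adjusted p = 0.859, edgeR), in a Wnt and Norrin list with 9 of 18 above 0 and 9 below, at a median of 0.0082.

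To see whether the agonist changed vessel genes after activation, CPA+RO was compared with CPA+veh. No member was called (0% of all genes), and DESeq2 and limma-voom called 0 members and 0 of all genes. The members leaned upwards, with 30 of 36 above 0 and 6 below, against 52.0% of all genes below 0, at a median of 0.11 with -0.01 over all genes. At an unadjusted p under 0.05, 5 of 36 members were higher (against 1.83% of all genes), Podxl, Ocln, Ptprb, Foxq1 and Rgs5, and 0 were lower (2.58%). Every adjusted p among members was 0.876 or more.

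Podxl was the one member whose CPA+RO and CPA+veh libraries did not overlap, upwards (0.906% of all genes), and no member was without overlap downwards (1.04%). It was at 28.6, 35.1, 27.5 and 29.7 CPM in CPA+RO and at 22.5, 16.5, 26.2 and 26.0 CPM in CPA+veh, with 23.7, 29.3, 25.6 and 34.9 CPM in control+veh, so the controls overlapped each group. The log2 fold change of CPA+RO over CPA+veh was 0.41 ± 0.15, and that of CPA+veh over control+veh -0.32 ± 0.15 (adjusted p = 0.500, edgeR). Foxq1 was at 3.48, 4.01, 3.30 and 3.64 CPM in CPA+RO and at 1.22, 2.15, 3.32 and 2.83 CPM in CPA+veh, with 2.69, 1.98, 4.06 and 3.08 CPM in control+veh. Its log2 fold change of 0.60 ± 0.26 was the largest of the members in this comparison, and CPA+veh replicate 3 lay above the lowest CPA+RO library. Ocln had 0.41 ± 0.17, Ptprb 0.45 ± 0.19 and Rgs5 0.34 ± 0.16, with the values by rat given above.

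The difference in this comparison too lay largely in CPA+veh replicates 1 and 2. These libraries were set apart with their low values in the same genes known, so a median nearer 0 without them was bound to follow. Without them the median of CPA+RO over CPA+veh was 0.0048 and 17 of 36 members lay below 0. At an unadjusted p under 0.05, 0 were higher and 1 was lower, beside 1.35% of all genes lower. With replicate 2 alone left out the median was 0.05 and 1 member was higher, and with replicate 1 alone left out it was 0.08 and 1 was higher. With replicate 3 left out it was 0.16 and 8 were higher, and with replicate 4 left out it was 0.21 and 12 were higher. The share of all genes lower was 4.53% without replicate 3 and 5.96% without replicate 4, against 2.58% with every library. The share of all genes higher was not counted with libraries left out. Leaving out CPA+RO replicate 2 left 2 members higher, CPA+RO replicate 4 left 1, and without CPA+RO replicate 3 the median was 0.16. Oligodendrocyte markers lay the other way, with all 16 below 0 at a median of -0.24 and 0 called, and their part in the members' values was not tested. CPA+veh rats enter both this comparison and the one with control+veh, so opposite signs in the pair are not separate results.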

How the data were processed

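Poly(A) RNA of the mPFC of 12 rats was sequenced (TruSeq Stranded mRNA, HiSeq4000). The authors deposited counts per gene and library, with no normalization, and RPKM computed by the authors from those counts per kilobase and library total. Tools named in the submitters' processing notes are STAR, SAMtools, bcl2fastq and FastQC, and the builds are Rnor_6.0 and rn6. Their versions, the counting rule and the annotation were not given in the sources used here. The table held 0 columns of other samples.

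In R 4.3.3, edgeR 4.0.16 (TMM, filterByExpr, robust=FALSE, quasi-likelihood) was fitted to all 12 libraries with the group as the only term, and p values were adjusted over 19094 genes by Benjamini-Hochberg. A gene was called at an adjusted p under 0.05. Log2 CPM used a prior count of 2. Alternatives used limma 3.58.1 and DESeq2 1.42.0, other scalings and filters, a replicate block, a length correction (span 0.3), halved counts and libraries left out. Lengths came from counts over RPKM for 91.7% of tested genes at 0.1 RPKM or more. Labels number 4 replicates in each group and name no animal. Each replicate was taken as a separate rat, since the paper gives 12 rats for this experiment. No batch could be fitted, and p values measure the spread between replicates taken as rats. The steps were tested on simulated data with planted changes. The members and lists, and leaving out CPA+veh replicates 1 and 2, were chosen with earlier results of these data known.

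Named were every member, with values by rat for the 6 of smallest p per comparison and, per role, those of highest CPM and smallest p, and up to 3 genes of smallest p from other lists. Values by rat of Flt1, Erg, Abcg2, Abcb1a and Slco1a4 were added after they were seen. Promoters shown are the 3 members of smallest p in CPA+veh with an entry and an ETS match, and 1 pericyte gene.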

Additional observations from a re-analysis of the deposited data

Results flagged for a closer look

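In a group of 4 rats, a highest or lowest value was marked when its gap to the nearest rat exceeded 0.829 of the group's range, which chance gives in about 1 in 20 groups. This held for 6 of 111 groups, Slco1a4 included, which is near that rate. Vwf was at 53.6 CPM in CPA+RO replicate 4, against 34.0 CPM in the next. Icam2 was at 1.77 CPM in CPA+RO replicate 1, against 2.24 CPM in the next, and Slc7a5 was at 77.4 CPM in CPA+RO replicate 2, against 71.7 CPM. Ramp2 was at 12.3 CPM in CPA+veh replicate 2, against 9.36 CPM in the next. Pdgfrb was at 31.1 CPM and Kcne4 at 5.62 CPM in CPA+veh replicate 1, against 23.8 and 4.41 CPM in the next of that group.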

How the results depend on the processing

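In CPA+veh over control+veh the members' median of -0.24 kept its sign under every setting run. It was -0.0347 without CPA+veh replicates 1 and 2 together, and -0.34 to -0.14 with each library left out. The count of lower members at an unadjusted p under 0.05, 9, was 2 without CPA+veh replicates 1 and 2, 14 with the length correction and replicate block together, and 6 to 17 with each library left out. The shares of all genes lower in these settings were 3.84%, 5.08% and 3.37% to 7.996%, against 4.94% in the main fit. DESeq2 called 1 member (Mfsd2a) where edgeR called 0, beside 115 and 22 of all genes, and no other setting called any member. In CPA+RO over control+veh 2 lower members became 4 with only the 2 groups fitted and 4 without CPA+veh replicates 1 and 2, and 1 to 4 with each library left out, at medians of -0.14 to -0.03. The shares of all genes lower there were 4.04%, 4.05% and 2.32% to 3.56%. In CPA+RO over CPA+veh 0 lower members became 1 (beside 1.35% of all genes) without CPA+veh replicates 1 and 2. Leaving out each library gave 0 lower and medians of 0.05 to 0.21. The causes were not tested. Over gene and setting, single members changed sign, uncalled, 32, 25 and 75 times in these comparisons and kept it 902, 910 and 860 times.

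Same replicate numbers gave no sign of pairing between rats (correlation of deviations -0.11 to 0.10 over 12 pairs, against -0.12 to 0.12 over 36 others). This check cannot exclude that the numbers follow the cohorts. With the replicate block the CPA+veh median was -0.26 with 13 lower and 0 called. Depth limits low members such as Sox18.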

Other observations

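Genes of neighbouring tissues, whose RNA can enter an mPFC block, are given by their lists and by 1 gene of each, chosen after its values were seen. Of 6 choroid plexus genes tested, 4 lay below 0 in CPA+veh over control+veh at a median of -0.09 and 3 in CPA+RO over control+veh at a median of -0.15. Of 7 ependymal genes tested, 5 lay below 0 in CPA+veh at a median of -0.33 and 6 in CPA+RO at a median of -0.23. None of either list was called in these comparisons. Against its list's median, Ttr, transthyretin, known from choroid plexus, averaged 1.18 ± 0.254 CPM in CPA+veh, 1.04 ± 0.410 in CPA+RO and 0.349 ± 0.0844 in control+veh (SD, n = 4 each), log2 fold changes over control+veh of 1.76 in CPA+veh (adjusted p = 0.0571, edgeR) and 1.58 in CPA+RO (adjusted p = 0.103, edgeR). Ak7, a ciliary adenylate kinase used as an ependymal marker, averaged 0.890 ± 0.570 CPM in CPA+veh, 0.846 ± 0.346 in CPA+RO and 4.40 ± 2.82 in control+veh, at -2.29 (adjusted p = 0.203, edgeR) and -2.37 (adjusted p = 0.160, edgeR).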
